A study of Homo sapiens with 16 samples.

Results

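CIITA and 9 genes of the MHC class II antigen presentation pathway were followed across the 8 conditions of an RNA-seq experiment on KG-1, an established cell line from human acute myeloid leukemia that grows as myeloblast-like cells in suspension. The set holds CIITA, CD74, HLA-DRA, HLA-DRB1, HLA-DPA1, HLA-DPB1, HLA-DQA1, HLA-DQB1, HLA-DMA and HLA-DMB. The symbols were matched to the counts through the Ensembl identifiers that GENCODE release 44 pairs with them. The set makes up 10 of the 43836 genes counted and was chosen with earlier results of these data known. All 10 had counts in every comparison, so no member was lost to a filter on low values.

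Control cells carried a lentiviral non-target shRNA (pLKO.1) and FOXM1-KD cells a lentiviral shRNA against FOXM1, a transcription factor of proliferating cells, and both lines were kept as puromycin-selected stable populations. Control cells received 0.3% DMSO for 48 h, the FOXM1 inhibitor STL427944 at 50 μM for 48 h, the allosteric AKT inhibitor MK-2206 at 30 μM for 24 h, the nucleoside analog AraC (cytarabine) at 0.75 μM for 48 h, or the BCL2 inhibitor venetoclax at 100 nM for 48 h. FOXM1-KD cells received DMSO, AraC or venetoclax at the same doses and times. Each condition had 2 libraries, 16 in all, which the study's methods call biological replicates. The labels name a single control line and a single FOXM1-KD line. Loss of FOXM1 therefore cannot be told apart from other differences between these lines, and "knockdown" below names the comparison of the lines. The p-values rest on the spread between libraries as edgeR pooled it over genes, not on the spread of each gene alone. How strongly it was pooled differs between comparisons, so the size of p-values should not be compared between comparisons. MK-2206 was given for 24 h and its DMSO control for 48 h, so that drug and time cannot be told apart in that comparison.

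MHC class II molecules are heterodimers of an alpha and a beta chain (HLA-DR, HLA-DP and HLA-DQ) that present peptides from the endosomal route to CD4+ T cells. CD74, the invariant chain, occupies the peptide groove during assembly and guides the complex to endosomes, where HLA-DM exchanges the remaining CD74 fragment for peptide. CIITA, the class II transactivator, does not bind DNA itself but joins the RFX, NF-Y and CREB factors that sit on the X and Y boxes of the class II promoters, and its level is known to set the transcription of these genes. Class II is constitutive on B cells, dendritic cells and monocytes, is carried by early myeloid progenitors and is lost at the promyelocyte stage.

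The genes lie on 3 chromosomes of GRCh38. CIITA (ENSG00000179583) spans chr16:10866222-10943021 on the plus strand and CD74 (ENSG00000019582) chr5:150401637-150412969 on the minus strand. The other 8 are on chromosome 6. HLA-DRA (ENSG00000204287) is at chr6:32439878-32445046 (plus), HLA-DRB1 (ENSG00000196126) at chr6:32577902-32589848 (minus), HLA-DQA1 (ENSG00000196735) at chr6:32628179-32647062 (plus) and HLA-DQB1 (ENSG00000179344) at chr6:32659467-32668383 (minus). HLA-DMB (ENSG00000242574) is at chr6:32934629-32941028 (minus) and HLA-DMA (ENSG00000204257) at chr6:32948613-32969094 (minus). HLA-DPA1 (ENSG00000231389) at chr6:33064569-33080775 (minus) overlaps HLA-DPB1 (ENSG00000223865) at chr6:33075990-33089696 (plus). The strand setting of the counting is not given in the sources used here, so reads of the shared stretch may be split between these 2 genes.

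Because 9 of the 10 genes moved together in the comparisons given further on, stretches of their RefSeq promoters (GRCh38.p14) are shown in the direction of transcription. A window from 250 bases before to 50 after the start site was at hand for 8 of the 10 genes, all but HLA-DRA and CIITA. Capitals mark the letters AGNNACNGA, a core of the X box, and ATTGG, the core of the Y box, or its complement CCAAT where it was read on the other strand. Both strands were searched, the 2 motifs do not overlap, and the letters were chosen after these sequences had been seen.

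CD74 (chr5:150412947-150413015, minus): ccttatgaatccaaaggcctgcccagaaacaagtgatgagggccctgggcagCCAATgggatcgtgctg
HLA-DRB1 (chr6:32589878-32589939, minus): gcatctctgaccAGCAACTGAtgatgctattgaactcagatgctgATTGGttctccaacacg
HLA-DQA1 (chr6:32637292-32637354, plus): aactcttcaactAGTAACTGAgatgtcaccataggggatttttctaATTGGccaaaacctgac
HLA-DQB1 (chr6:32666729-32666790, minus): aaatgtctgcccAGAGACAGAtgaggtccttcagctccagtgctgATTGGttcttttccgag
HLA-DMB (chr6:32941055-32941128, minus): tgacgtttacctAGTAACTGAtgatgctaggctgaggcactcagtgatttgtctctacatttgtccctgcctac
HLA-DMA (chr6:32953160-32953222, minus): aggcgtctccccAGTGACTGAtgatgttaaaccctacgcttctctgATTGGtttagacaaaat
HLA-DPA1 (chr6:33073687-33073760, minus): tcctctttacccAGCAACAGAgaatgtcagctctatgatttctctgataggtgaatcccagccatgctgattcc
HLA-DPB1 (chr6:33075839-33075907, plus): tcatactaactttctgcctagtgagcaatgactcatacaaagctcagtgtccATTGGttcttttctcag

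HLA-DRB1, HLA-DQA1, HLA-DQB1 and HLA-DMA carried both cores on the gene's strand, with starts 33 or 34 bases apart. The X core stood alone in the HLA-DMB and HLA-DPA1 stretches, and the Y core alone in those of HLA-DPB1 and CD74. Further matches lay in the windows outside the printed stretches for all genes but CD74. Among them was a Y core on the other strand of HLA-DMB, at position -22 from the start site. These 8 genes had 9 windows, and the window not shown held neither core. Of all 35116 promoter windows of 300 bases, 15.3% held the X core on either strand, 34.6% the Y core on either strand, and 0.903% an X core with a Y core 20 to 60 bases further on. These matches describe letters in a window and no binding was measured.

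Library totals ran from 7351755 to 21362546 counts, and the 2 MK-2206 libraries were the shallowest (7351755 and 10330720). FOXM1, the targeted gene, had 2554 and 2515 counts in control cells with DMSO and 923 and 1551 in FOXM1-KD cells with DMSO, a log2 fold change of -1.08 (SE 0.28, adjusted p = 0.056). Its change was -0.56 under AraC, short of 2-fold, and -1.20 under venetoclax. The second STL427944 library and the first venetoclax library of control cells stood apart: they differed from one another by 0.419 (root mean square log2 difference) but from their own replicates by 0.783 and 0.788. Their labels are used as given, whether they were exchanged or handled together was not tested, and the values that rest on them change as given beside each result and where libraries are left out. CD34, a surface antigen of KG-1, had 12483 to 28951 counts in the 8 control libraries without MK-2206, 7 and 18 with MK-2206 and 0 to 4 in the 6 FOXM1-KD libraries. All 4 promyelocyte markers examined (MPO, ELANE, PRTN3, AZU1) had at least 10 counts in every MK-2206 and FOXM1-KD library, with a summed level of 417 to 597 CPM and 1814 to 14172 CPM, against 0.485 to 12.5 CPM in the other 8 libraries, where no more than 1 of them reached 10 counts in both libraries of a condition. Their part in the differences reported here was not tested.

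KG-1 cells expressed the whole class II set at baseline. In control cells with DMSO, the 8 HLA-D genes together took 0.213% and 0.197% of all counts (38762 and 36542). Levels of different genes can be compared per kilobase of transcript only, and on that scale (CPM per kb) HLA-DRA stood first at 688, ahead of CD74 at 398, HLA-DRB1 at 278 and HLA-DPA1 at 213. HLA-DQB1 (92.0), HLA-DMA (75.4), HLA-DPB1 (61.5), HLA-DMB (21.7) and CIITA (21.4) followed, and HLA-DQA1 was lowest with 5.65 CPM per kb. By these values the alpha chain of HLA-DQ was far below its beta chain, whereas the alpha chains of HLA-DR and HLA-DP were above theirs. Reads of HLA alleles unlike the reference may have been lost, and reads of the stretch shared by HLA-DPA1 and HLA-DPB1 may be split. The part of either in these orders was not tested.

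Across the 16 libraries the genes fell into 2 levels. For 9 of the 10, each of the 8 control libraries with DMSO, STL427944, AraC or venetoclax was above all 8 libraries with MK-2206 or FOXM1 knockdown. The share of all genes that separate in this way was not counted, so this number has no background. These libraries also differed widely over all genes. The first DMSO libraries of control and FOXM1-KD cells were 2.27 apart (root mean square log2 difference), and the 2 control DMSO libraries 0.314. CIITA ranged over 230 to 631 CPM (median 316) in the first 8 and 15.5 to 86.1 CPM (median 43.1) in the second, and HLA-DRA over 686 to 1062 CPM (median 833) and 23.7 to 215 CPM (median 107). HLA-DQB1 showed the widest gap, from 110 to 205 CPM against 0.0527 to 1.58 CPM. CD74 was the exception: its 435 to 871 CPM (median 611) overlapped 147 to 772 CPM (median 411). In these bulk libraries, fewer cells with class II RNA and less class II RNA per cell cannot be told apart.

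**Figure D1:**
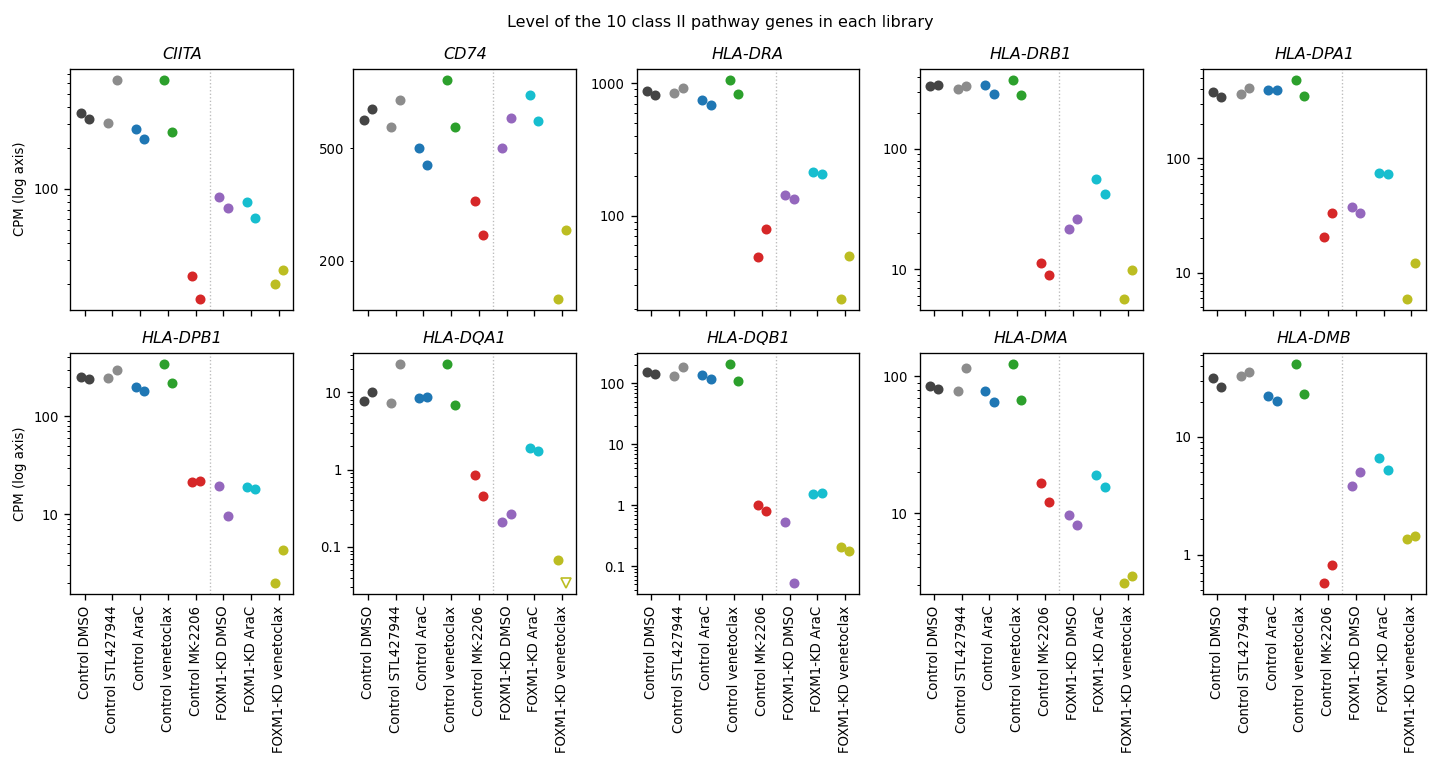
Level of each gene (CPM, log axis) in each of the 16 libraries by condition, 1 point per library; a dotted line separates control from FOXM1-KD cells, and an open triangle marks a count of 0. For all genes but CD74 the points of MK-2206 and of the 3 FOXM1-KD conditions lie below all points of the other 4 control conditions.

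The comparisons with a large response come first, namely MK-2206 against DMSO in control cells, and FOXM1-KD against control cells in DMSO, under AraC and under venetoclax. A gene is called, and said to rise or fall, where it changed at least 2-fold with an adjusted p below 0.1 in edgeR's quasi-likelihood test with Benjamini-Hochberg adjustment over all genes. MK-2206 lowered all 10 genes, among protein-coding genes of which 24.3% were called lower and 30.2% higher. FOXM1 knockdown lowered 9 of 10 in DMSO (background 16.2% lower and 13.4% higher), 9 of 10 under AraC (16.3% lower) and 10 of 10 under venetoclax (16.2% lower). The median log2 fold change of the 10 was -3.69 for MK-2206, -3.27 for knockdown in DMSO, -2.18 under AraC and -5.13 under venetoclax, beside medians of 0.43, -0.01, 0.03 and 0.11 over all protein-coding genes tested. MK-2206 and the knockdown in DMSO share the 2 control DMSO libraries, so these 2 sets of values are not independent.

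CIITA, the transactivator, stood at 359.7 and 327 CPM in control cells with DMSO. MK-2206 left 22.7 and 15.5 CPM, a log2 fold change of -4.11 (SE 0.30, adjusted p = 8.31e-41). FOXM1-KD cells had 86.1 and 71.8 CPM in DMSO, 79.8 and 60.9 CPM under AraC and 19.9 and 25.2 CPM under venetoclax. The 2 libraries of each pair were close to one another, and the venetoclax pair of FOXM1-KD cells overlapped the MK-2206 pair. Against control cells with the same treatment, the log2 fold changes were -2.11 (SE 0.14, adjusted p = 0.0024), -1.88 (SE 0.20) and -4.30 (SE 0.41), the last being -3.55 without the first control venetoclax library. In the order of means, CIITA ran from STL427944 over venetoclax, DMSO and AraC in control cells to FOXM1-KD cells with DMSO, AraC and venetoclax and last MK-2206, with steps free of overlap below control DMSO, below control AraC and below FOXM1-KD AraC only.

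CD74, the invariant chain, was the member that changed least. Control cells with DMSO had 629 and 687 CPM, MK-2206 cells 324 and 247 CPM, and the log2 fold change was -1.14 (SE 0.25, adjusted p = 1.56e-05). That call was lost without the second MK-2206 library (log2 fold change -0.99) or the second DMSO library (-1.06, adjusted p = 0.1), and under edgeR's filterByExpr (-0.98, adjusted p = 0.00813), each time for the fold or the adjusted p alone. FOXM1-KD cells with DMSO had 498 and 638 CPM, which overlapped the control libraries' range in part, with a log2 fold change of -0.20 (SE 0.16, adjusted p = 0.421). Under AraC, CD74 had 772 and 625 CPM in FOXM1-KD cells and 499 and 435 CPM in control cells, a log2 fold change of 0.54 (SE 0.16, adjusted p = 0.00257) that is under 2-fold. Under venetoclax, its 147 and 258 CPM in FOXM1-KD cells were below the 871 and 592 CPM of control cells (log2 fold change -1.85, SE 0.35, adjusted p = 2.11e-06). Of the 8 conditions, 6 formed a run of overlapping neighbours for CD74, and the step free of overlap lay between control AraC and MK-2206.

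HLA-DRA and HLA-DRB1 encode the chains of HLA-DR. HLA-DRA had 879.5 and 819 CPM in control cells with DMSO and 49.1 and 80.0 CPM with MK-2206 (log2 fold change -3.64, SE 0.27, adjusted p = 2.5e-39). In FOXM1-KD cells it had 143 and 134 CPM with DMSO, 215 and 208 CPM with AraC, and 23.7 and 49.5 CPM with venetoclax. The DMSO, AraC and venetoclax pairs of FOXM1-KD cells did not overlap, and the knockdown changes were -2.61 (SE 0.11), -1.80 (SE 0.17) and -4.69 (SE 0.40) on the log2 scale, the last being -5.31 without the second FOXM1-KD venetoclax library. HLA-DRB1 went from 337 and 344 CPM in control cells with DMSO to 11.3 and 9.02 CPM with MK-2206 (log2 fold change -5.00, SE 0.32, adjusted p = 4.85e-54). Its FOXM1-KD libraries had 21.5 and 25.9 CPM with DMSO, 56.6 and 42.4 CPM with AraC, and 5.67 and 9.79 CPM with venetoclax, the last overlapping MK-2206. The knockdown changes of HLA-DRB1 were -3.83 (SE 0.15), -2.70 (SE 0.20) and -5.41 (SE 0.45), in each case larger in size than those of HLA-DRA.

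HLA-DPA1 and HLA-DPB1 encode HLA-DP. HLA-DPA1 had 382 and 344 CPM in control cells with DMSO and 20.7 and 33.2 CPM with MK-2206 (log2 fold change -3.67, SE 0.29, adjusted p = 8.95e-35). FOXM1-KD cells had 37.3 and 33.2 CPM with DMSO, 74.7 and 73.7 CPM with AraC and 5.94 and 12.2 CPM with venetoclax. No FOXM1-KD pair of HLA-DPA1 overlapped another, and its knockdown changes were -3.35 (SE 0.13), -2.45 (SE 0.19) and -5.51 (SE 0.44), the last being -6.13 without the second FOXM1-KD venetoclax library. HLA-DPB1 had 249.7 and 241 CPM in control cells with DMSO, 21.6 and 22.1 CPM with MK-2206 (log2 fold change -3.42, SE 0.30, adjusted p = 1.98e-29), and 19.3 and 9.70 CPM in FOXM1-KD cells with DMSO. AraC left the beta chain at 19.1 and 18.1 CPM in FOXM1-KD cells, inside the range of the DMSO pair, and venetoclax at 1.98 and 4.36 CPM. Its knockdown changes were -4.07 (SE 0.36), -3.38 (SE 0.22) and -6.45 (SE 0.48). The first was -4.68 without the first FOXM1-KD DMSO library and the last -7.13 without the second FOXM1-KD venetoclax library.

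HLA-DQA1 and HLA-DQB1, the chains of HLA-DQ, came close to the limit of detection. HLA-DQB1 had 2786 and 2597 counts (153 and 143 CPM) in control cells with DMSO, but 7 and 7 counts with MK-2206 (log2 fold change -7.28, SE 0.41, adjusted p = 5.69e-68). The FOXM1-KD libraries held 10 and 1 counts with DMSO, 26 and 30 with AraC, and 3 and 3 with venetoclax. This was the largest knockdown change of the set in DMSO at -8.95 (SE 0.49, adjusted p = 0.00184) and under AraC at -6.40 (SE 0.29). The DMSO value was -11.30 without the first and -8.11 without the second FOXM1-KD library. Under venetoclax the control libraries held 3194 and 2246 counts, and CPM were 789-fold lower in FOXM1-KD cells (95% counting interval 362 to 2152). HLA-DQA1 had 140 and 184 counts in control cells with DMSO, 6 and 4 with MK-2206 (log2 fold change -3.70, SE 0.51, adjusted p = 2.59e-12), and 4 and 5 in FOXM1-KD cells with DMSO (-5.18, SE 0.33, adjusted p = 0.00231). With AraC it had 164 and 182 counts in control and 32 and 33 in FOXM1-KD cells (log2 fold change -2.28, SE 0.30). With venetoclax it had 359 and 140 counts in control and 1 and 0 in FOXM1-KD cells, which is 434-fold lower (95% counting interval 77.6 to 17196). Counting intervals cover counting error only.

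HLA-DMA and HLA-DMB encode the peptide exchange factor HLA-DM. HLA-DMA had 84.3 and 80.4 CPM in control cells with DMSO and 16.7 and 12.0 CPM with MK-2206, a log2 fold change of -2.46 (SE 0.31, adjusted p = 1.01e-14) that was the smallest after CD74. HLA-DMB fell further with MK-2206, from 584 and 484 counts to 4 and 7 (log2 fold change -5.30, SE 0.45, adjusted p = 5.2e-31). In FOXM1-KD cells with DMSO the order was turned: HLA-DMA changed by -3.20 (SE 0.14) to 9.68 and 8.17 CPM and HLA-DMB by -2.71 (SE 0.22) to 3.86 and 5.01 CPM. The knockdown changes of the 2 chains were close under AraC, at -2.09 (SE 0.24) and -1.89 (SE 0.26), and under venetoclax, at -4.86 (SE 0.48) and -4.52 (SE 0.53), and no test of the difference between them was run.

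**Figure D2:**
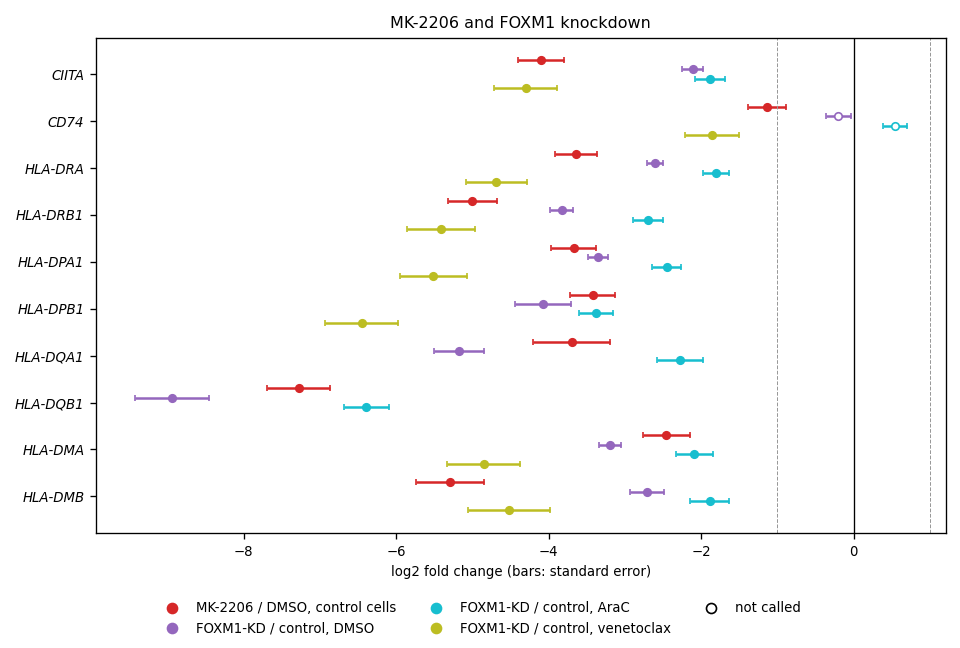
Log2 fold change with its standard error for each gene in 4 comparisons: MK-2206 against DMSO in control cells, and FOXM1-KD against control cells in DMSO, under AraC and under venetoclax; open circles were not called, dashed lines mark a 2-fold change, and HLA-DQA1 and HLA-DQB1 are left out under venetoclax because FOXM1-KD libraries had 0 to 3 counts. All points but those of CD74 in DMSO and under AraC lie below -1, and HLA-DQB1 lies farthest left.

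Ratios of counts within a library do not depend on scaling, and several of them differed between the conditions without overlap. CD74 had 0.634 to 0.838 counts per HLA-DRA count in the 8 control libraries without MK-2206. The ratio was 6.59 and 3.09 with MK-2206, and FOXM1-KD libraries had 3.48 and 4.77 with DMSO, 3.60 and 3.01 with AraC and 6.20 and 5.21 with venetoclax, so that no library of the 2 sets overlapped. HLA-DQB1 per HLA-DRA was 0.133 to 0.197 in the 8 control libraries, 0.0203 and 0.0101 with MK-2206 and 0.000395 to 0.00865 over the FOXM1-KD libraries. HLA-DRB1 per HLA-DRA was 0.344 to 0.454 in the 8 control libraries, 0.230 and 0.113 with MK-2206 and at most 0.264 in the FOXM1-KD libraries, again without overlap. HLA-DRA per CIITA, in contrast, ranged over 1.45 to 3.14 in the 8 control libraries and 1.19 to 5.16 in the MK-2206 and FOXM1-KD libraries, which overlapped. HLA-DMB per HLA-DMA was 0.0342 and 0.0673 with MK-2206, below the 0.285 to 0.428 of the 8 control libraries and the 0.334 to 0.613 of FOXM1-KD cells. HLA-DPB1 per HLA-DPA1 was 0.457 to 0.717 in the 8 control libraries and 0.666 and 1.04 with MK-2206. In FOXM1-KD cells this ratio was 0.518 and 0.292 with DMSO, and below all control libraries with AraC (0.256 and 0.245) and venetoclax (0.333 and 0.356). HLA-DPA1 per HLA-DRA was 0.419 to 0.572 in the 8 control libraries and 0.422 and 0.415 with MK-2206, which overlapped, and 0.247 to 0.355 over the FOXM1-KD libraries.

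**Figure D3:**
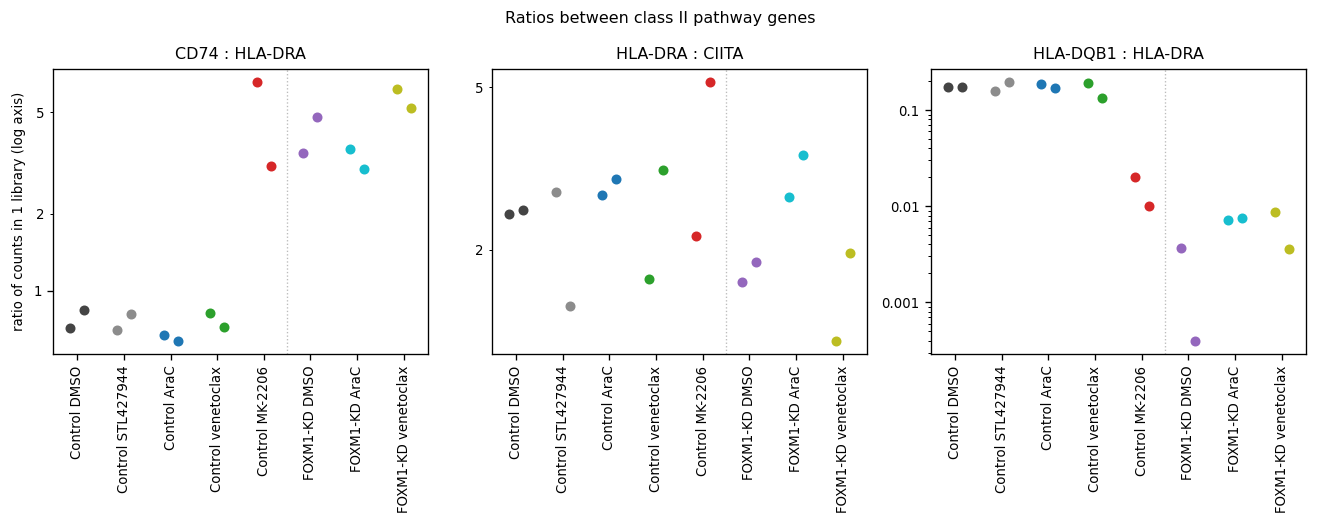
Ratios of counts within each of the 16 libraries (log axis, 1 point per library) for CD74 to HLA-DRA, HLA-DRA to CIITA and HLA-DQB1 to HLA-DRA. CD74 to HLA-DRA is above 3 in every MK-2206 and FOXM1-KD library and below 0.839 elsewhere, HLA-DQB1 to HLA-DRA is lowest in FOXM1-KD cells, and HLA-DRA to CIITA overlaps between the conditions.

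None of the 10 genes was called for STL427944, AraC or venetoclax in control cells. For STL427944 edgeR called 0% of protein-coding genes, with 174 of them and 0 members at an unadjusted p below 0.05, and DESeq2 called 1 gene and no member. HLA-DQA1 (7.28 and 23.1 CPM, against 7.67 and 10.1 CPM with DMSO) and CIITA (305 and 631 CPM, against 359.7 and 327 CPM) had the largest estimates, with log2 fold changes of 0.79 (SE 0.52) and 0.46 (SE 0.35). Both high values belong to the second STL427944 library, which stood apart. Without it the estimates were -0.30 and -0.18, and without the first library HLA-DQA1 was called (1.41, adjusted p = 0.094).

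Venetoclax in control cells gave the same picture. Again edgeR called 0% of protein-coding genes, with 122 of them and 0 members at an unadjusted p below 0.05, and DESeq2 called 0 genes. HLA-DQA1 had 23.1 and 6.83 CPM and CIITA 627 and 262 CPM, log2 fold changes of 0.77 (SE 0.54) and 0.39 (SE 0.39) that rest on the first venetoclax library. Without that library they were -0.38 and -0.39, and 9 of the 10 genes turned from a positive to a negative estimate, HLA-DRB1 being negative in both.

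AraC in control cells gave estimates under 2-fold for all 10 members. Of protein-coding genes, 8.16% were called in either direction, and of the 10 members none by edgeR or by DESeq2, although 5 had an unadjusted p below 0.05 by each tool. CD74 was at 499 and 435 CPM (log2 fold change -0.51, SE 0.11, adjusted p = 0.00559), CIITA at 273 and 230.5 CPM (-0.47, SE 0.12, adjusted p = 0.0163), HLA-DPB1 at 197 and 179 CPM (-0.40, SE 0.12, adjusted p = 0.0303) and HLA-DMB at 22.3 and 20.2 CPM (-0.48, SE 0.16, adjusted p = 0.0609), each pair below both DMSO libraries. HLA-DPA1 was at 399 and 392 CPM, above both DMSO libraries, with a log2 fold change of 0.11 (SE 0.11, adjusted p = 0.625). The median of the 10 was -0.24 beside 0.03 over all protein-coding genes.

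In FOXM1-KD cells, AraC and venetoclax were each compared with DMSO. AraC raised the HLA-DQ chains, and these 2 of 10 members were called higher against 11.9% of protein-coding genes: HLA-DQA1 from 4 and 5 counts with DMSO to 32 and 33 (log2 fold change 2.82, SE 0.61, adjusted p = 0.000103) and HLA-DQB1 from 10 and 1 to 26 and 30 (2.32, SE 0.61, adjusted p = 0.00213). HLA-DPA1 (1.00, SE 0.28, adjusted p = 0.00505) and HLA-DRB1 (0.98, SE 0.29, adjusted p = 0.00892) lay just under 2-fold, with no overlap between the AraC and DMSO pairs given above. HLA-DRB1 passed it (1.03) when its counts were summed with those of its near copies HLA-DRB5 and HLA-DRB6, between which reads may be split. CIITA had an estimate of the other sign (-0.24, SE 0.27, adjusted p = 0.677) and overlapping pairs. Neither call was made without either FOXM1-KD AraC library, and HLA-DQB1 was not called by DESeq2 (2.35, adjusted p = 0.1). Its estimate rested on the unequal FOXM1-KD DMSO libraries, with 1.48 (adjusted p = 0.104, not called) without the second and 4.63 without the first.

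Venetoclax lowered 8 of the 10 in FOXM1-KD cells, in a comparison that called 0.791% of protein-coding genes lower. CIITA changed by -1.79 (SE 0.33, adjusted p = 1.53e-05), CD74 by -1.47 (SE 0.30, adjusted p = 0.000114), HLA-DRA by -1.90 (SE 0.33, adjusted p = 2.13e-06) and HLA-DRB1 by -1.59 (SE 0.37, adjusted p = 0.0021). The HLA-DP chains changed by -1.93 (SE 0.36) and -2.16 (SE 0.42), and the HLA-DM chains by -1.43 (SE 0.43) and -1.64 (SE 0.49), the last pair with adjusted p of 0.05 and 0.0502. For each of these 8 genes both venetoclax libraries were below both DMSO libraries of FOXM1-KD cells. HLA-DQA1 with 4 and 5 against 1 and 0 counts (7.46-fold lower, 95% counting interval 1.03 to 327) and HLA-DQB1 with 10 and 1 against 3 and 3 counts (1.52-fold lower, 0.515 to 5.00) were too sparse for a call. The 8 calls became 5 and 4 without the first and second DMSO library and 0 without either venetoclax library of FOXM1-KD cells, each such fit resting on 3 libraries.

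Whether the drugs acted differently in FOXM1-KD and control cells was tested with an interaction term over 8 libraries. For AraC it was positive for all 10 genes (median 0.94, beside 0.11 over all protein-coding genes) and 4 were called higher, against 5.47% of protein-coding genes: HLA-DQA1 (2.98, SE 0.59, adjusted p = 3.68e-05), HLA-DQB1 (2.63, SE 0.48, adjusted p = 6.92e-06), HLA-DRB1 (1.21, SE 0.26, adjusted p = 0.000266) and HLA-DMA (1.18, SE 0.31, adjusted p = 0.00586). CIITA had the smallest term (0.31, SE 0.26, adjusted p = 0.792). The HLA-DQB1 term was 4.95 without the first and 1.64 without the second FOXM1-KD DMSO library. The 4 calls became 1 without the second control AraC library and 2 without the first FOXM1-KD AraC library.

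For venetoclax the interaction was negative for all 10 genes (median -1.93, beside 0.08) and 7 were called lower, against 0.368% of protein-coding genes. HLA-DPB1 (-2.36, SE 0.42, adjusted p = 3.01e-05), CIITA (-2.18, SE 0.39, adjusted p = 3.37e-05), HLA-DPA1 (-2.15, SE 0.40) and HLA-DRA (-2.06, SE 0.37) had terms past 4-fold. CD74 (-1.64, SE 0.37, adjusted p = 0.00307), HLA-DMA (-1.65, SE 0.46, adjusted p = 0.0524) and HLA-DRB1 (-1.56, SE 0.40, adjusted p = 0.0199) followed. These calls depended on the libraries and on the filter. They became 0 without the first control venetoclax library, which stood apart, or without either FOXM1-KD venetoclax library, 2 without the second control venetoclax library, 4 without either control DMSO library, and 0 under edgeR's filterByExpr, where the terms kept their size but the lowest adjusted p of the 7 was 0.849. With DESeq2, 5 were called, without HLA-DRB1 and HLA-DMA. The CIITA term was -1.41 without the first control venetoclax library, and without the second FOXM1-KD venetoclax library the terms of HLA-DRA, HLA-DPA1 and HLA-DPB1 were -2.70, -2.77 and -3.05.

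**Figure D4:**
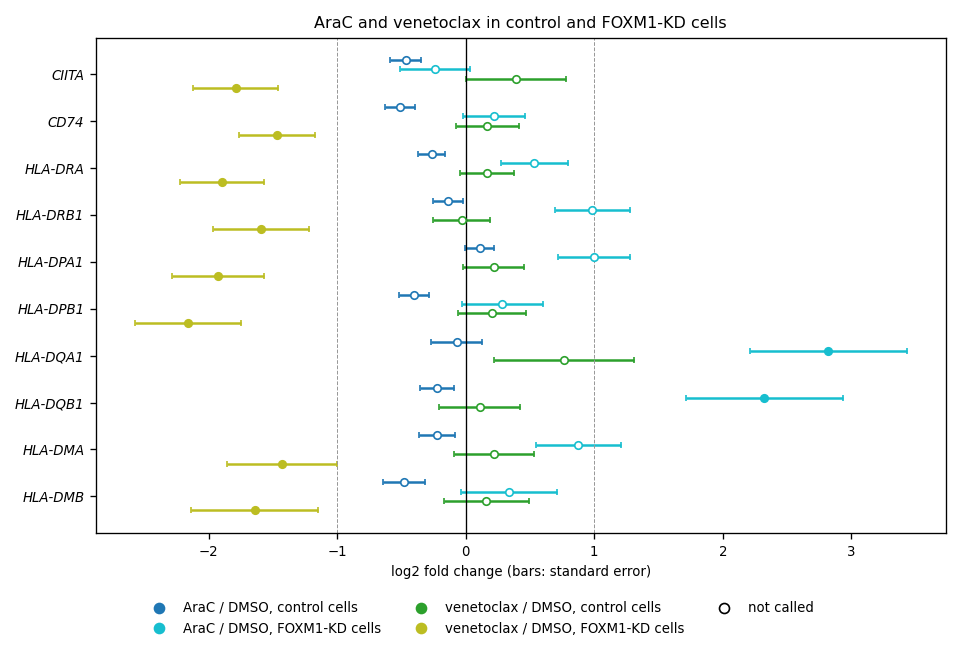
Log2 fold change with its standard error for each gene under AraC and venetoclax, each against DMSO, in control and in FOXM1-KD cells; open circles were not called, dashed lines mark a 2-fold change, and HLA-DQA1 and HLA-DQB1 are left out for venetoclax in FOXM1-KD cells because its libraries had 0 to 3 counts. The venetoclax points of FOXM1-KD cells lie below -1 for the other 8 genes, the AraC points of HLA-DQA1 and HLA-DQB1 in FOXM1-KD cells lie above 1, and no point of control cells was called.

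Other class II genes followed the members in the large comparisons. Of 6 tested, MK-2206 lowered 4 and FOXM1 knockdown 3 in DMSO, 4 under AraC and 5 under venetoclax. In the same order, 24.3%, 16.2%, 16.3% and 16.2% of protein-coding genes were called lower. HLA-DRB5, a second DR beta chain close in sequence to HLA-DRB1, had 634 and 536 counts in control cells with DMSO, 18 and 7 with MK-2206 (log2 fold change -4.22, SE 0.39) and 39 and 51 in FOXM1-KD cells (-3.74, SE 0.22). HLA-DOA, a chain of the HLA-DM inhibitor HLA-DO, had 680 and 516, 17 and 12 (-4.05, SE 0.39), and 14 and 9 counts (-5.73, SE 0.30) in these conditions. HLA-DQB2 had 49 and 27 counts, then 0 and 0 with MK-2206 (at least 5.38-fold lower, taking 3 counts per library as the floor), and HLA-DOB 17 and 14, then 0 and 0 (at least 2.19-fold lower). HLA-DQA2 went the other way: it had 0 counts in the 8 control libraries without MK-2206 but reached 20 and 6 counts when FOXM1-KD cells received AraC, at least 5.02-fold higher than control AraC. AraC raised 3 of the 6 in FOXM1-KD cells, HLA-DOA (2.39), HLA-DQA2 (2.10) and the pseudogene HLA-DRB6 (1.57), against 11.9% of protein-coding genes.

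The factors that recruit CIITA to class II promoters were for the most part not called. Of 7 genes (RFX5, RFXAP, RFXANK, NFYA, NFYB, NFYC, CREB1), 0 were called for knockdown in DMSO by edgeR or DESeq2, although 3 had an unadjusted p below 0.05 by each tool, and the median log2 fold change was 0.07. NFYA was at -0.92 (adjusted p = 0.00726), NFYC at 0.75 and RFX5 at 0.47 (adjusted p = 0.066). RFX5, the X box binding subunit, had 1574 and 1589 counts in control and 2064 and 2448 in FOXM1-KD cells. MK-2206 lowered 2 of the 7, RFXAP (-1.86, SE 0.32, adjusted p = 2.99e-08) and NFYA (-1.25, SE 0.28, adjusted p = 2.35e-05), with a median of -0.72. That count is near the 24.3% of protein-coding genes called lower with MK-2206. For knockdown in DMSO the shares were 16.2% lower and 13.4% higher. Under AraC knockdown lowered NFYA (-1.56) and raised NFYC (1.26), and under venetoclax it raised NFYC (1.06).

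Genes of the interferon-gamma route, the main inducible input to CIITA, were called in both directions. Among protein-coding genes, knockdown in DMSO called 16.2% lower and 13.4% higher, and MK-2206 24.3% lower and 30.2% higher. With 7 genes, the counts of this route are near these shares. Knockdown in DMSO lowered 2 of 7: IFNGR1, a receptor chain (-1.30, SE 0.13, adjusted p = 0.00546), and SOCS1, the feedback inhibitor (-3.28, SE 0.69, adjusted p = 0.0326). It raised IFNGR2 (1.00, SE 0.11). MK-2206 lowered IFNGR1 (-2.88) and JAK2, a receptor kinase (-1.22), and raised IRF1 (1.12) and SOCS1 (6.45, SE 0.32, adjusted p = 1.52e-86). SOCS1 had 115 and 140 counts in control cells with DMSO. MK-2206 brought it to 5270 and 3675 counts, while FOXM1-KD cells with DMSO had 23 and 4. AraC and venetoclax raised it in FOXM1-KD cells to 321 and 307 and to 242 and 236 counts (log2 fold changes 4.54 and 4.43). It thus moved in opposite directions under MK-2206 and under knockdown in DMSO, in both of which CIITA fell.

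Among 5 further regulators of CIITA, 3 rose with both MK-2206 and knockdown in DMSO. These comparisons called 30.2% and 13.4% of protein-coding genes higher, and the share called higher in both was not counted. PRDM1 (BLIMP1), a repressor of the CIITA gene, had 2 and 12 counts in control cells with DMSO, 110 and 159 with MK-2206 (log2 fold change 5.51, SE 0.46) and 178 and 189 in FOXM1-KD cells (4.64, SE 0.61, adjusted p = 0.00989). EZH2, which methylates histone H3 in repressed chromatin, went from 798 and 743 to 2139 and 2222 (2.80, SE 0.28) and to 2292 and 2401 counts (1.56, SE 0.11). IRF8, a factor of monocyte and dendritic cells, had 3 and 2 counts in control cells with DMSO, 559 and 742 with MK-2206 (606-fold higher, 95% counting interval 259 to 1869) and 1785 and 4763 in FOXM1-KD cells (1260-fold higher, 540 to 3883). IRF4 had 7 and 10 counts in control cells with DMSO, 25 and 39 with MK-2206 (log2 fold change 3.16) and 1 and 0 in FOXM1-KD cells (17.7-fold lower, 2.77 to 738). SPI1 (PU.1) had log2 fold changes of -0.95 and 0.60 in the 2 comparisons and was called in neither.

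**Figure D5:**
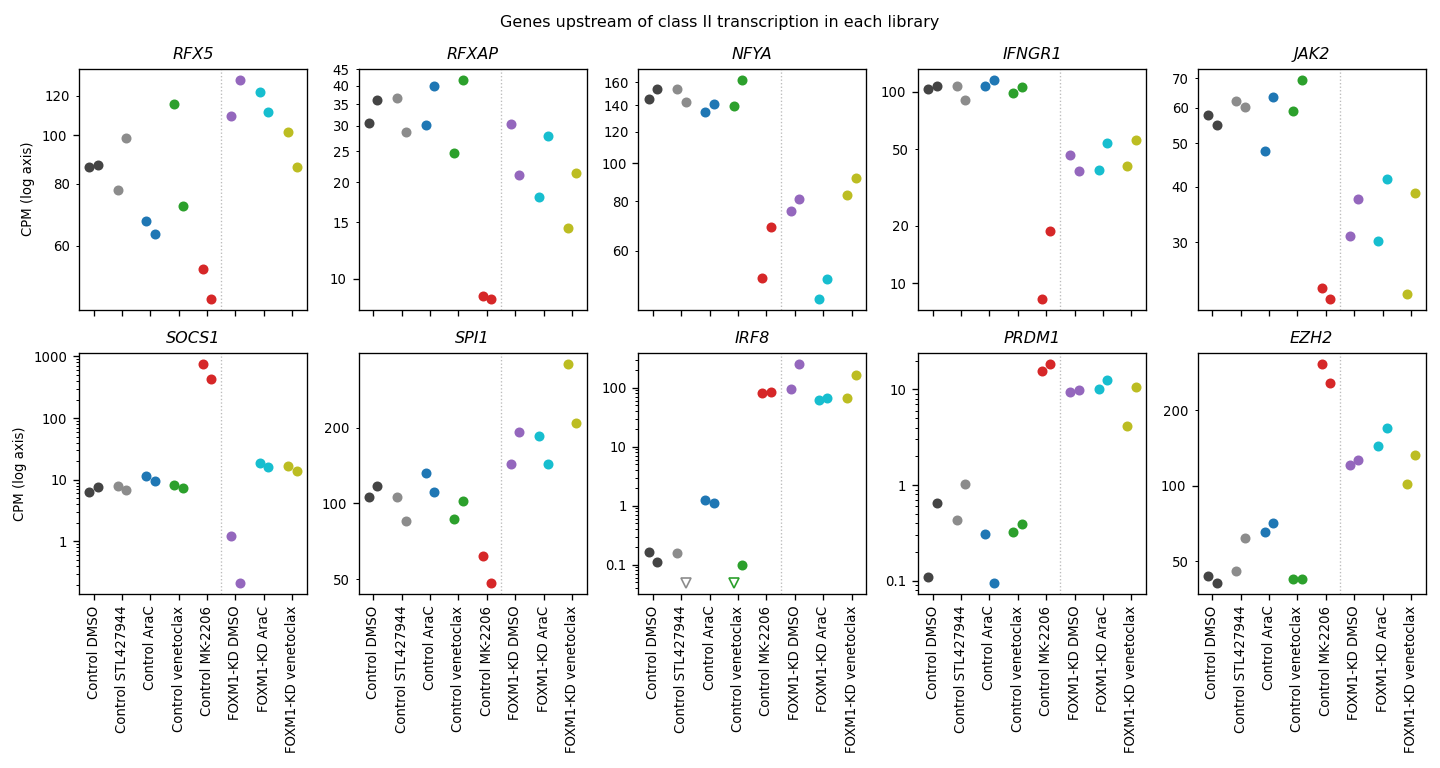
Level (CPM, log axis) of 10 genes upstream of class II transcription in each library, 1 point per library, with open triangles for a count of 0 and a dotted line between control and FOXM1-KD cells. RFX5 stays within 1 order of magnitude, IFNGR1 and JAK2 are lower in MK-2206 and FOXM1-KD libraries, IRF8, PRDM1 and EZH2 are higher there, and SOCS1 is highest with MK-2206 and lowest in FOXM1-KD cells with DMSO.

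Genes that act after class II transcription did not share one direction. Their counts stand beside 24.3% lower and 30.2% higher of protein-coding genes for MK-2206. For knockdown in DMSO these shares were 16.2% and 13.4%. Of 7 genes of endosomal processing, MK-2206 lowered CTSD (cathepsin D, -2.61) and CTSS (cathepsin S, which trims CD74, -1.95) and raised CTSL (cathepsin L) from 0 and 0 to 162 and 210 counts (at least 144-fold) and IFI30, the thiol reductase (6.57). Knockdown in DMSO lowered CTSD (-1.11) and raised CTSS (1.05) and CTSL (202 and 244 counts, at least 71.5-fold), so that CTSS moved in opposite directions in the 2 comparisons. Of 5 genes of class II turnover and co-stimulation, MK-2206 lowered MARCHF8, a ubiquitin ligase (-1.17), and knockdown in DMSO lowered MARCHF8 (-1.47) and raised CD86, a ligand of T cell CD28 (2.41, SE 0.41, adjusted p = 0.0185). CD86 reached 616 and 892 counts in FOXM1-KD cells with AraC against 85 and 48 with DMSO (3.49, SE 0.34, adjusted p = 2.19e-21). CD40 went from 1 and 1 to 22 and 10 counts (16.9-fold higher, 95% counting interval 4.30 to 145) and CD80 from 0 and 2 to 9 and 13 counts in the same comparison.

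Markers of B cells and dendritic cells, which carry class II as a rule, were low in control cells and lower still in the MK-2206 and FOXM1-KD libraries with DMSO. The 5 B cell markers summed to 17.2 to 20.3 CPM in control cells with DMSO, 4.28 to 5.43 CPM with MK-2206 and 1.32 to 2.59 CPM in FOXM1-KD cells with DMSO, and MS4A1 was at 0 in all 16 libraries. The 5 dendritic cell markers summed to 33.7 to 34.6 CPM, 0.809 to 0.857 CPM and 0.264 to 0.316 CPM in the same conditions, mainly through CLEC9A (549 and 489, 2 and 4, and 0 and 0 counts). The 5 monocyte markers, in contrast, summed to 601 to 1345 CPM in FOXM1-KD cells with DMSO, against 32.9 to 33.7 CPM in control cells with DMSO and 31.1 to 31.7 CPM with MK-2206. With MK-2206, 2 of 4 tested B cell markers were called lower and 2 higher, 2 of 4 T cell and 3 of 5 dendritic cell markers lower, and 3 of 5 monocyte and 4 of 4 promyelocyte markers higher. With knockdown in DMSO, 2 of 4 B cell markers were called lower and 1 higher, 2 of 3 T cell and 3 of 4 dendritic cell markers lower, and 4 of 5 monocyte and 4 of 4 promyelocyte markers higher. The shares over protein-coding genes were 24.3% lower and 30.2% higher with MK-2206, and 16.2% and 13.4% with knockdown in DMSO. The T cell markers summed to 11.2 to 20.8 CPM in control DMSO libraries, 1.39 to 2.29 CPM with MK-2206 and 0.0529 to 0.580 CPM in FOXM1-KD cells with DMSO. The 5 progenitor and myeloid markers, CD34 among them, summed to 1769 to 1842, 82.7 to 138 and 314 to 383 CPM, with 3 of 4 tested called lower with MK-2206, and 1 of 5 lower and 1 higher with knockdown. Their part in the class II values was not tested.

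The genes closest to HLA-DRA and CIITA in pattern were sought over the means of the 8 conditions, among 9585 protein-coding genes with a mean of at least 10 CPM, by Pearson's r of log2(CPM + 1). For HLA-DRA the closest outside the set were SLC46A3 (r = 0.989), TRIM22 (0.988), MFAP4 (0.988), ZNF571 (0.987) and ATP8B2 (0.987), and within it HLA-DRB1 (0.993), HLA-DPA1 (0.992), HLA-DMB (0.979) and CIITA (0.979). For CIITA they were MYEF2 (0.995), RUFY3 (0.993), ATP8B2 (0.992), SLC35E3 (0.992) and ST3GAL5 (0.991), and within the set HLA-DMB (0.995) and HLA-DRA (0.979). CD74 was the member least like the others, with r of 0.576 to 0.816 against the 8 members ranked. These values describe 8 points in 2 levels from the same libraries. HLA-DQA1 was below the minimum and was not ranked.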

How the data were processed

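RNA-seq was measured in 16 libraries of KG-1 cells, 2 for each of 8 conditions. The values are raw counts per gene as the authors deposited them, without normalization. Per the labels and the study's methods, STAR aligned the reads to hg38 and featureCounts counted them on Ensembl genes, but versions and the strand setting are not given in the sources used here. The methods name a stranded total RNA kit with ribosomal RNA depletion in 1 batch and a linker with molecular identifiers, whose use in counting is not stated, and the labels name another kit, so counts are taken as reads. HLA genes are polymorphic and reads were aligned to 1 reference sequence of each, so reads of unlike alleles or of near copies (HLA-DRB1 with HLA-DRB5 and HLA-DRB6, HLA-DQ genes with HLA-DQA2 and HLA-DQB2) may have been lost or split.

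Groups were taken from the sample labels. The quasi-likelihood test of edgeR 4.0.16 (R 4.3.3, TMM scaling) was fitted to the 4 libraries that enter a comparison, or to 8 for interaction terms, and p-values were adjusted by Benjamini and Hochberg across every gene that had 1 count or more. Calls needed 2-fold and an adjusted p below 0.1, as the study chose. Fitted fold changes used a prior count of 0.125. CPM relate counts to TMM-scaled totals over all 16 libraries and are given per library or as means, and CPM per kb use the length of the Ensembl canonical transcript. Where a group had no count in either library, the fold is a lower bound against a floor of 3 counts per library. Where a group had at most 3 counts in each library but not 0 in both, a ratio of CPM with a 95% exact counting interval replaces the fitted fold. Background shares are of the protein-coding genes tested. The test was tried on simulated counts before use. Totals of 7351755 to 21362546 counts set the precision, and replicates differed by more than counting noise (chi-square per degree of freedom 8.58 to 103), so each library counted as 1 sample.

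The members, the gene lists and the tests were chosen with earlier results of these data known. All 10 members are named, the pathway lists are given by their counts of called genes, with called genes named for MK-2206 and for knockdown in DMSO, marker lists by summed CPM and counts, and the 5 genes most like HLA-DRA and CIITA in pattern are named by rank. HLA-DRB3 and HLA-DRB4 were listed too and were not analysed here, and another gene of the lists is not reported here. The labels number the libraries of MK-2206, AraC and venetoclax, and deviations from the condition means of same-numbered libraries correlated by 0.357 to 0.567 in all 10 pairs of conditions (12583 genes), so the numbers were taken as pairs and a fit with the number as a replicate block was an alternative where both groups had numbers. Other alternatives were DESeq2 1.42.0, its size factors in edgeR, scaling by total counts, edgeR's filterByExpr, a fit of all 16 libraries, an adjusted p below 0.05, counts summed over near copies, and leaving out each library in turn. Python 3.11.15 with pandas 2.3.3, numpy 2.4.6 and matplotlib 3.10.9 was used for values and plots.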

Additional observations from a re-analysis of the deposited data

Results flagged for a closer look

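In all, 15 interaction terms, which test the difference between control and FOXM1-KD cells itself, passed an adjusted p below 0.1 in edgeR's main fit. Not all passed in other fits. With all 16 libraries in the edgeR fit, the AraC terms of HLA-DRB1 (adjusted p = 0.189) and HLA-DMA (adjusted p = 0.354) did not. The AraC terms under 2-fold in the main fit are not given for that fit. By DESeq2, 7 members for AraC and 5 for venetoclax had an adjusted p below 0.1. Under edgeR's filterByExpr none of the 7 venetoclax terms did, the lowest adjusted p being 0.849. Terms are FOXM1-KD minus control on the log2 scale. For AraC they were 0.82 for CD74, 0.88 for HLA-DRA, 1.21 for HLA-DRB1, 0.97 for HLA-DPA1, 0.77 for HLA-DPB1, 2.98 for HLA-DQA1, 2.63 for HLA-DQB1 and 1.18 for HLA-DMA. AraC estimates in control cells were at or below 0.11 for all of these genes, and in FOXM1-KD cells they were above 0. For venetoclax the terms were -2.18 for CIITA, -1.64 for CD74, -2.06 for HLA-DRA, -1.56 for HLA-DRB1, -2.15 for HLA-DPA1, -2.36 for HLA-DPB1 and -1.65 for HLA-DMA. Venetoclax estimates of these 7 genes in control cells ran from -0.03 to 0.39 and rest in part on the first control venetoclax library, which stood apart, and none of the 7 terms was called without that library.

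In the same FOXM1-KD libraries the summed level of the 4 promyelocyte markers differed between treatments as well. It was 5369 to 5734 CPM with DMSO. With AraC it was 1814 to 2525 CPM, and the estimates of 9 of the 10 class II genes were above 0, with CIITA at -0.24. With venetoclax, where 8 of the 10 fell, it was 8023 to 14172 CPM. The sum was mainly MPO (means 4888, 1812 and 8236 CPM), and AZU1 did not fall with AraC (means 73.3 with DMSO and 77.5 CPM with AraC). In control cells with MK-2206, where all 10 class II genes fell, the sum was 417 to 597 CPM. The part of these markers in the interaction terms was not tested.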

How the results depend on the processing

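The large comparisons kept their calls: knockdown lowered 9 members in DMSO, 9 under AraC and 10 under venetoclax in every alternative and with any library left out, and MK-2206 lowered 9 to 10. In the fit with a replicate block, 9 were called under AraC and 10 under venetoclax, and the pairing changed no call; where DMSO or STL427944 libraries took part, which carry no numbers, no such fit was made. Scaling moved the median gene for MK-2206 (-0.29 with TMM, -0.51 with total counts, -0.18 with DESeq2 size factors) and for AraC in FOXM1-KD cells (-0.02 with TMM, 0.14 with total counts). AraC in FOXM1-KD cells called 1 member with DESeq2, 5 with total counts and 4 with all 16 libraries, against 2. The AraC interaction called 2 with all 16 libraries, against 4, and the venetoclax interaction 0 with filterByExpr and 5 with DESeq2, against 7. Venetoclax in FOXM1-KD cells called 7 with DESeq2, against 8. With each library left out in turn, calls ranged from 0 to 3 for AraC and 0 to 5 for venetoclax in FOXM1-KD cells, 1 to 6 and 0 to 6 for their interactions, and 0 to 1 for STL427944. Estimates near 0 changed sign. With total counts, HLA-DRB1 was at 0.043 for STL427944 and 0.0091 for venetoclax in control cells, and HLA-DQA1 at 0.0033 for AraC. With libraries left out, STL427944 estimates ranged from -0.18 to 0.91 for CIITA, -0.16 to 0.20 for CD74, -0.021 to 0.14 for HLA-DRA, -0.11 to 0.016 for HLA-DRB1, -0.0080 to 0.22 for HLA-DPA1, -0.015 to 0.30 for HLA-DPB1, -0.30 to 1.41 for HLA-DQA1, -0.16 to 0.32 for HLA-DQB1 and -0.093 to 0.51 for HLA-DMA. Venetoclax estimates in control cells ranged from -0.39 to 0.90 for CIITA, -0.16 to 0.44 for CD74, -0.050 to 0.36 for HLA-DRA, -0.27 to 0.18 for HLA-DRB1, -0.065 to 0.46 for HLA-DPA1, -0.18 to 0.51 for HLA-DPB1, -0.38 to 1.41 for HLA-DQA1, -0.44 to 0.51 for HLA-DQB1, -0.31 to 0.61 for HLA-DMA and -0.35 to 0.54 for HLA-DMB. AraC estimates in control cells ranged from -0.26 to 0.0012 for HLA-DRB1 and -0.25 to 0.14 for HLA-DQA1. In FOXM1-KD cells HLA-DPB1 ranged from -0.13 to 0.84 for AraC, and HLA-DQB1 from -1.42 to 1.73 for venetoclax and -1.53 to 1.64 for its interaction. The cause of these changes was not tested. With 2 libraries per condition, and 0 to 10 counts of the HLA-DQ genes in FOXM1-KD cells with DMSO or venetoclax, estimates of these genes rest on few counts.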
